A study of Drosophila melanogaster with 8 samples.

Results

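The genes described here encode the receptors of neuropeptides and peptide hormones of Drosophila melanogaster, taken as the 38 genes of a fixed list of symbols that had a row in the deposited count table. They were 38 of 17518 named genes, and all 38 passed the filter on low counts that left 12048 genes for testing. RNA sequencing was performed on heads of males of the white-eyed strain w1118, aged 1 to 3 d. The flies had spent 1 day under starvation or on food, with 4 samples per condition and 30 pooled flies per sample, and no other allele or agent separated the conditions. A head sample holds brain, eye, fat body, muscle and blood cells together, so each value is a mean over all tissues of the head in pooled males of a single strain.

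Most neuropeptides and peptide hormones act through G protein-coupled receptors, membrane proteins that pass the signal on through cyclic AMP or calcium. A small family with large leucine-rich repeat ectodomains binds glycoprotein hormones and relaxin-like peptides. In flies these receptors set feeding, the use of stored fat and sugar, water balance, sleep, courtship and moulting. Many are made in few neurons, and some are made mainly outside the brain.

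Library totals lay between 48541958 and 50814153 counts in starvation and between 47936038 and 53168449 on food. Marker lists gave a head profile in every library. Summed over 8 neuronal genes, levels in counts scaled to library size (CPM) were 4687 to 7905 CPM in starvation and 6872 to 7621 CPM on food, and 7 photoreceptor genes summed to 17184 to 21055 CPM and 14365 to 16128 CPM, with 4 of the 7 higher in the test. Accessory gland and testis genes summed to at most 2.01 CPM in starvation and 2.52 CPM on food. Starvation replicate 3 stood apart. It had the lowest neuronal sum and the highest photoreceptor sum, and its 10 most abundant genes held 25.6% of its counts. Many counts, calls and estimates are given with and without it, but not all of those that moved. Values given only once may also depend on it.

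Few receptors passed the test between starvation and food. At an adjusted p (false discovery rate, Benjamini-Hochberg over all tested genes) under 0.05 in edgeR's quasi-likelihood test, 5 of 38 receptors were called, which is 13.2% of them, against 26.7% of all tested genes. The called genes were 2 receptors that rose, Dh31-R and MsR2 (10.04% of all tested genes rose), and 3 that fell, AkhR, PK1-R and Proc-R (16.7% of all tested genes fell). The median log2 fold change of the receptors, starvation over food, was 0.11, against -0.01 for all tested genes, with 23 receptors above 0 and 15 below. AkhR was the only receptor that also passed the study's requirement of a 2-fold change, which 6.30% of all tested genes met (0.930% higher and 5.37% lower).

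Most of the changes were small in size. For 34 of 38 receptors the estimate lay within 0.5 log2 units of 0. The share of all tested genes within that range was not counted. Among the 33 receptors that did not pass, the 95% confidence interval stayed within 0.5 log2 units on either side of 0 for 24 and within 1 unit for 32. In 7 receptors the libraries of the conditions did not overlap, 3 of them higher and 4 lower in starvation, which is 18.4% of the receptors, against 31.2% of all tested genes (12.6% higher, 18.6% lower). Without starvation replicate 3, 10 receptors passed, 7 higher and 3 lower, and the share over all genes was then 37.5%. The 5 gained were Dh44-R1, PK2-R1, SIFaR, TrissinR and rk, all higher. With upper-quartile scaling, which moved the median of all tested genes to 0.10, 12 receptors passed, 10 higher and 2 lower, against 31.8% of all genes. Those gained were AstA-R1, CCKLR-17D1, CNMaR, Dh44-R1, Dh44-R2, PK2-R2, TkR99D and TrissinR, all higher, and PK1-R was lost. The number that rose was 0 without food replicate 1, food replicate 3, starvation replicate 2 or starvation replicate 4. It was 1 without food replicate 4, where Dh31-R kept its call. It was also 1 without food replicate 2 or starvation replicate 1, where Dh31-R and MsR2 were lost and PK2-R2 was gained. The number that fell stayed at 2 or 3 whichever library was left out. The share of all tested genes called, in either direction, also dropped without most libraries. It was 19.9%, 19.6%, 21.5% and 21.6% without food replicates 1 to 4. Without starvation replicates 1, 2 and 4 it was 23.6%, 23.1% and 21.5%, against 26.7% with all libraries.

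**Figure D1:**
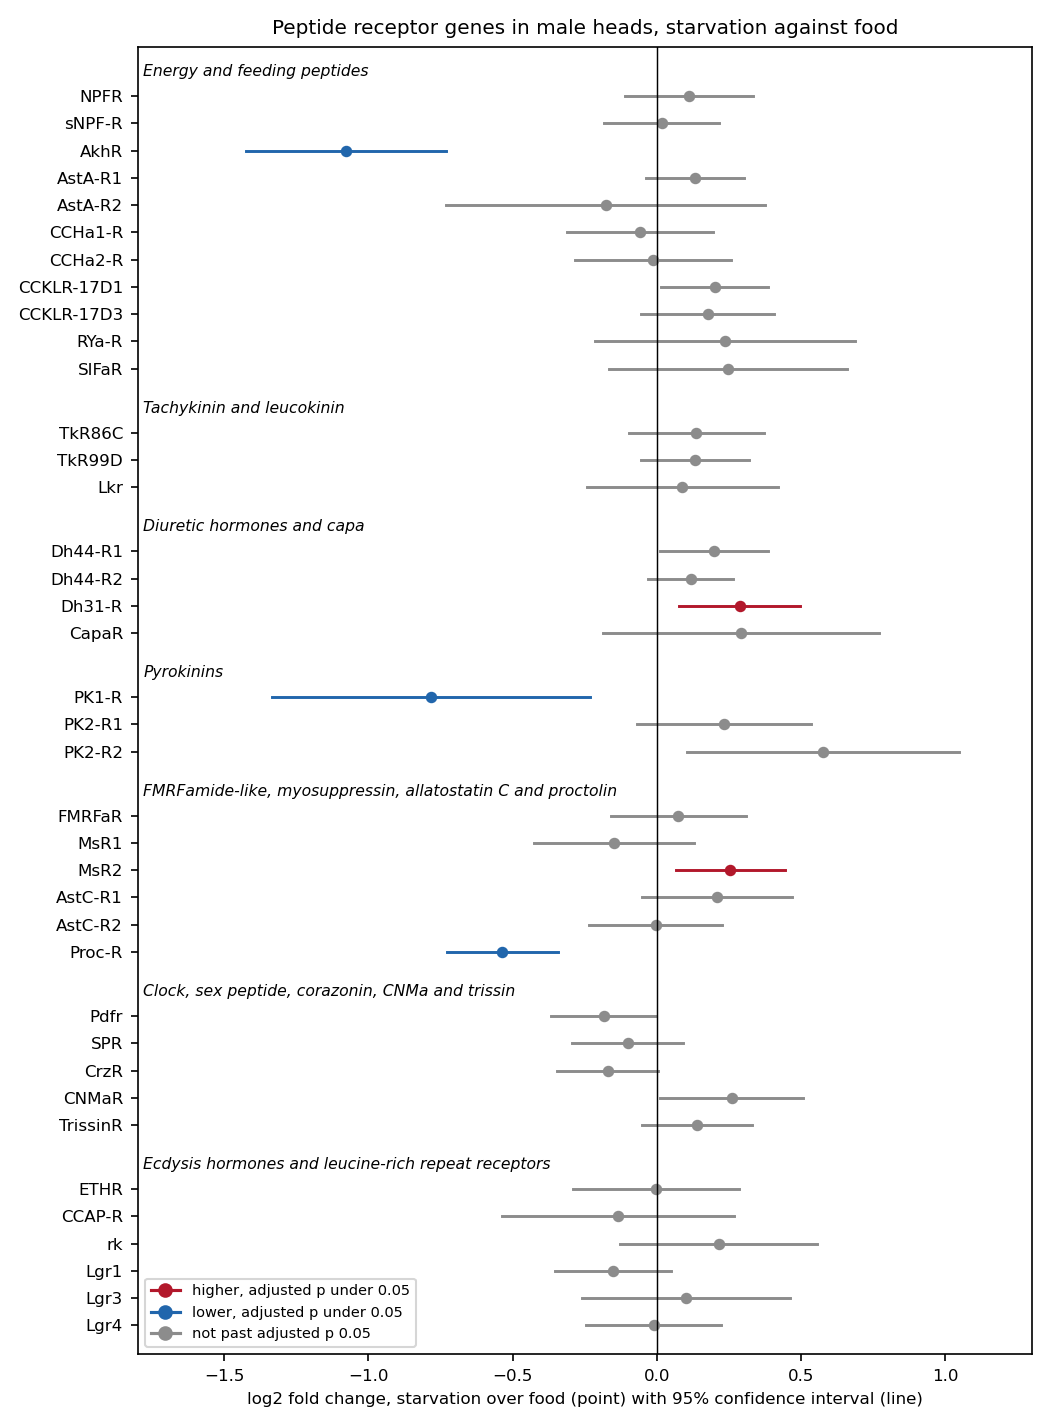
Log2 fold change of each of the 38 receptor genes, starvation over food, with its 95% confidence interval, grouped by the peptides they bind. Red marks a rise and blue a fall at an adjusted p under 0.05, and grey marks genes that did not pass. AkhR lies farthest to the left at -1.08, and the grey intervals mostly cross 0.

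Among the 11 receptors of peptides that act in energy balance and feeding, 1 passed the test and it fell. The median log2 fold change of the group was 0.11. The gene that fell was AkhR, the receptor through which adipokinetic hormone releases fat and glycogen from the fat body, much as glucagon does in mammals. AkhR lies on chromosome 2L from 6711286 to 6716186 of release 6 of the genome. Its level was 15.8, 18.7, 16.3 and 10.6 CPM in starvation replicates 1 to 4, against 32.8, 29.5, 38.1 and 29.1 CPM in food replicates 1 to 4. Every starvation library lay well below every food library, and the lowest of all was starvation replicate 4. The log2 fold change was -1.08 (SE 0.16, 95% interval -1.42 to -0.73, adjusted p = 4.87e-04, edgeR), and an exact two-sided permutation test gave p = 0.0286, the smallest that 4 against 4 samples allow. AkhR kept its call under each of 17 alternatives, but the estimate was under 2-fold with upper-quartile scaling (-0.96), without food replicate 3 (-0.99) and without starvation replicate 4 (-0.91).

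In RNA from whole heads, fewer cells of a type and less RNA per cell cannot be told apart, and markers of the fat body moved with AkhR. Summed over 7 fat body genes, levels were 2174, 2704, 2325 and 1976 CPM in starvation replicates 1 to 4, against 10085, 9472, 12008 and 7531 CPM in food replicates 1 to 4. Within each condition this sum placed the 4 libraries in the same order as AkhR did. Of the list, 4 genes fell (log2 fold changes of -2.80 for the lipoprotein gene apolpp, -8.03 for the storage protein gene Lsp2, -1.14 for the fatty acid synthase gene FASN1 and -5.01 for to), while Lpin, a phosphatidate phosphatase of fat storage, rose by 0.63, and Fbp1 and Desat1 did not pass. Hemocyte markers, summed over 5 genes, were 110 to 178 CPM in starvation and 230 to 366 CPM on food, with all 5 lower. The part of either cell type in the AkhR result was not tested. Akh, the gene of the hormone itself, is made in the corpora cardiaca and had 3 to 22 counts in a starvation library and 9 to 15 in a food library.

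The other 10 receptors of this group did not pass. NPFR, the receptor of neuropeptide F, a relative of mammalian neuropeptide Y that drives feeding, had a log2 fold change of 0.11 (95% interval -0.11 to 0.33). For sNPF-R, whose short neuropeptide F promotes food intake, it was 0.02 (-0.18 to 0.22). CCHa2-R, which on insulin-producing cells receives the fat body hormone CCHamide-2, had a log2 fold change of -0.01 (-0.28 to 0.26) whose sign changed with the scaling, while the gene of its hormone fell by 3.23. CCHa1-R had -0.06 (-0.31 to 0.19). These estimates sit close to 0, and their intervals leave room for changes of up to 0.33 log2 units.

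CCKLR-17D1, a receptor of the satiety peptide drosulfakinin, had 9.94, 11.1, 10.1 and 9.94 CPM in starvation and 8.25, 9.06, 9.02 and 9.40 CPM on food. The groups did not overlap, yet the difference of 0.20 did not pass over all genes (adjusted p = 0.11, edgeR). The second drosulfakinin receptor, CCKLR-17D3, had 0.18 and overlapping libraries. Both allatostatin A receptors, which belong with mammalian galanin receptors and act against feeding, failed the test, at 0.13 for AstA-R1 and -0.18 for AstA-R2, whose interval of -0.73 to 0.38 was the widest of the group. RYa-R, the RYamide receptor, had 0.24, with 1.61 to 2.19 CPM in starvation and 1.16 to 1.93 CPM on food.

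SIFaR, the receptor of SIFamide, a peptide that ties hunger to courtship and sleep, depended on a single library. It had 20.9, 17.7, 10.04 and 20.01 CPM in starvation and 14.7, 15.1, 14.3 and 13.7 CPM on food. Starvation replicates 1, 2 and 4 were above all food libraries and replicate 3 was below them. The log2 fold change was 0.25 (interval -0.16 to 0.66, adjusted p = 0.38, edgeR) with all libraries and 0.44 without starvation replicate 3, where it passed (adjusted p = 0.00105).

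The 3 receptors of tachykinin-like and leucokinin peptides all lay slightly above 0, and 0 passed in edgeR's quasi-likelihood test, in DESeq2, in edgeR's exact test, in limma-voom or at an unadjusted p under 0.05. TkR99D, which binds tachykinin, had 0.13, TkR86C, which binds natalisin, had 0.14, and Lkr, through which leucokinin acts on water balance and on the link between feeding and sleep, had 0.09 (interval -0.24 to 0.42). With upper-quartile scaling TkR99D passed (0.25, adjusted p = 0.0464, edgeR). Lkr was 6.43, 7.66, 4.91 and 7.81 CPM in starvation and 7.17, 6.12, 5.64 and 6.31 CPM on food. Starvation replicate 3 was again the lowest, and the groups overlapped. The estimate was 0.21 without starvation replicate 3, 0.02 without starvation replicate 2, 0.03 without starvation replicate 4, 0.16 without food replicate 1 and 0.04 without food replicate 3, so it moved with single libraries.

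All 4 receptors of the diuretic hormones and capa peptides had estimates above 0, with a median of 0.24, and 1 passed. Dh31-R, a calcitonin receptor relative that binds diuretic hormone 31, rose. The gene lies on chromosome 2R from 13267798 to 13295927. Its level was 32.8, 29.9, 26.6 and 34.3 CPM in starvation and 24.5, 23.1, 25.5 and 28.2 CPM on food. Starvation replicates 1, 2 and 4 were above all food libraries, while starvation replicate 3 lay below food replicate 4. Starvation over food gave a log2 fold change of 0.29 (SE 0.09, interval 0.08 to 0.50, adjusted p = 0.0458, edgeR), and the exact permutation p was 0.0571.

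The Dh31-R call stood close to the threshold. It was lost in limma-voom (adjusted p = 0.0501) and when any of 6 libraries was left out, with estimates between 0.24 and 0.30. The adjusted p in edgeR was 0.119, 0.141 and 0.0920 without food replicates 1, 2 and 3, and 0.0707, 0.0702 and 0.0779 without starvation replicates 1, 2 and 4. Without starvation replicate 3 it was 0.00536 at 0.35.

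The corticotropin-releasing-factor-like diuretic hormone 44 has a pair of receptors. Dh44-R1 was 21.9, 20.1, 20.1 and 23.7 CPM in starvation and 16.7, 18.8, 19.7 and 19.4 CPM on food. Its groups did not overlap, but 0.20 did not pass (interval 0.01 to 0.39, adjusted p = 0.112, edgeR), and it passed without starvation replicate 3 at 0.23. Dh44-R2, made in the gut as well as in the brain, had 56.4 ± 2.71 CPM in starvation and 52.0 ± 2.28 CPM on food (SD, n = 4 each) and a log2 fold change of 0.12. CapaR, known from the Malpighian tubule, was low, at 1.73 ± 0.455 and 1.41 ± 0.183 CPM, with an interval of -0.19 to 0.77. Markers of the Malpighian tubule and gut summed to 59.6 to 75.7 CPM in starvation and 69.9 to 74.5 CPM on food.

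The 3 pyrokinin receptors had estimates on both sides of 0, with a median of 0.23, and 1 passed. PK1-R, which binds the pyrokinin of the capa precursor, fell. It lies on chromosome 3R from 14099832 to 14103122. PK1-R had 2.79, 2.76, 1.23 and 2.17 CPM in starvation and 3.76, 5.04, 2.97 and 3.63 CPM on food. The groups did not overlap, but food replicate 3 lay just above starvation replicates 1 and 2, and starvation replicate 3 was the lowest.

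PK1-R had a log2 fold change of -0.78 (SE 0.25, interval -1.33 to -0.23, adjusted p = 0.0389, edgeR; exact permutation p = 0.0286). The call was lost with upper-quartile scaling (-0.67, adjusted p = 0.0525) and without 4 libraries. The adjusted p in edgeR was 0.0823, 0.127 and 0.0694 without food replicates 1, 2 and 4, at -0.79, -0.62 and -0.81, and 0.0783 without starvation replicate 4, at -0.75. Without starvation replicate 3 the estimate was -0.58 and still passed (adjusted p = 0.0342). Capa, whose precursor holds the ligand, had 0.18 and did not pass (adjusted p = 0.22).

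PK2-R2, a receptor of the hugin pyrokinin, which links taste to feeding, had the largest estimate above 0 among the 38 receptors. It had 2.55, 3.56, 3.95 and 4.01 CPM in starvation and 1.81, 3.11, 2.67 and 1.82 CPM on food. Starvation replicate 1 lay below food replicates 2 and 3. The log2 fold change of 0.58 (SE 0.21, interval 0.11 to 1.05) did not pass (adjusted p = 0.0709, edgeR), and it passed in 6 of 17 alternatives, DESeq2 (adjusted p = 0.0353) among them. Its neighbour PK2-R1, which binds the same peptide, had 0.23 (-0.07 to 0.53) with all libraries. Without starvation replicate 3 PK2-R1 had 0.35 and passed (adjusted p = 0.0185, edgeR).

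**Figure D2:**
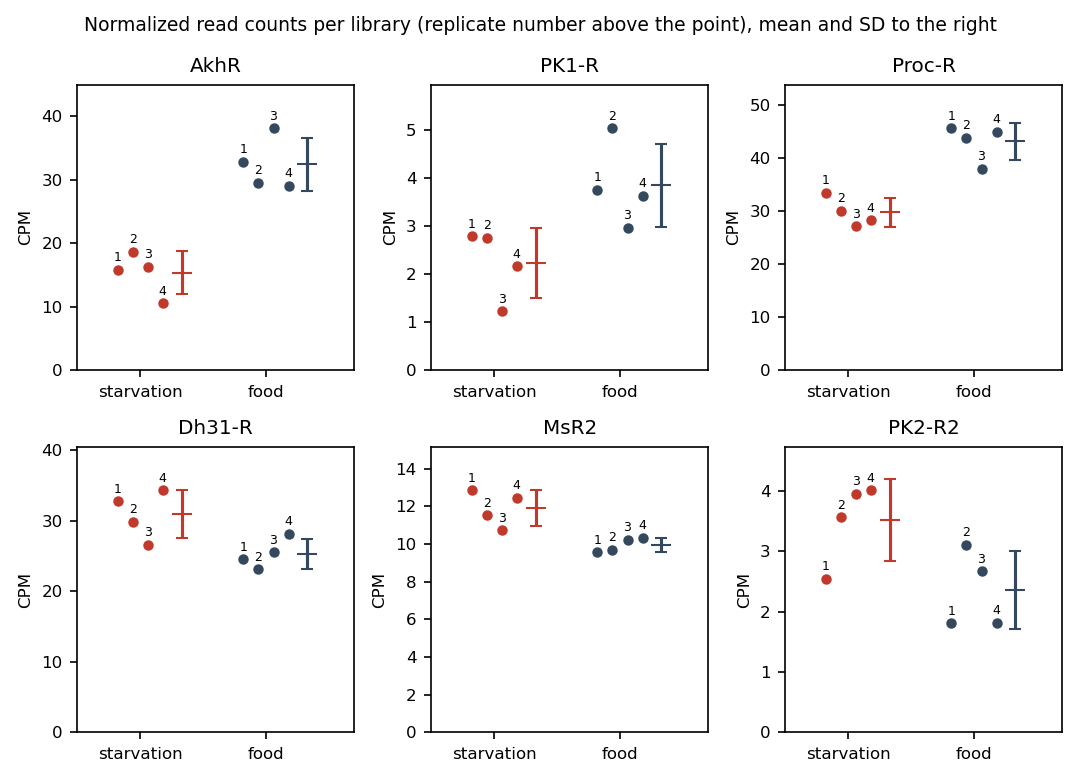
Normalised read counts (CPM) of 6 receptors in each library, with the replicate number above the point and the mean ± SD of a condition to its right, starvation left of food and all axes starting at 0. AkhR, PK1-R, Proc-R and MsR2 show no overlap between the conditions, while Dh31-R and PK2-R2 overlap.

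Of the 6 receptors of FMRFamide-like peptides, myosuppressin, allatostatin C and proctolin, 1 rose and 1 fell. Proc-R, the receptor of proctolin, a peptide that strengthens muscle contraction, fell. It lies on the X chromosome from 4707916 to 4729487. Its level was 33.4, 30.1, 27.1 and 28.3 CPM in starvation and 45.6, 43.8, 38 and 44.9 CPM on food. Every starvation library was lower than every food library, and within each condition replicate 3 was the lowest.

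Proc-R had a log2 fold change of -0.54 (SE 0.09, interval -0.73 to -0.34, adjusted p = 0.00105, edgeR; exact permutation p = 0.0286). It passed under each of 17 alternatives, with estimates between -0.59 and -0.42. The gene of its ligand, Proc, moved the other way and rose by 0.50, with 74.1 ± 1.59 CPM in starvation and 52.5 ± 1.24 CPM on food (SD, n = 4 each), also under each of the 17 alternatives. Muscle markers summed to 3684 to 4989 CPM in starvation and 4336 to 5719 CPM on food, and these ranges overlap. Other cell types did move with Proc-R: all 6 glial markers, all 5 hemocyte markers and 4 of 7 fat body markers fell, with ranges of their sums that do not overlap between conditions, and their part in the Proc-R result was not tested.

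MsR2, a receptor of the muscle-relaxing peptide myosuppressin, rose. It lies on chromosome 3L from 2282883 to 2300944. Its level was 12.8, 11.5, 10.7 and 12.5 CPM in starvation and 9.57, 9.71, 10.2 and 10.3 CPM on food. All starvation libraries were above all food libraries, although starvation replicate 3 and food replicate 4 were close. The log2 fold change was 0.25 (SE 0.09, interval 0.06 to 0.45, adjusted p = 0.0499, edgeR; exact permutation p = 0.0286).

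Of the 5 calls this was lost most often, in 11 of 17 alternatives at estimates between 0.24 and 0.27. Among these the adjusted p was 0.0597 with no filter on low counts, 0.0515 in edgeR's exact test and 0.0508 in limma-voom. In edgeR it was 0.126, 0.127, 0.0853 and 0.0777 without food replicates 1 to 4, and 0.0890, 0.0742 and 0.0830 without starvation replicates 1, 2 and 4. Without starvation replicate 3 the estimate was 0.30 and passed (adjusted p = 0.00865).

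MsR1, the second myosuppressin receptor, had 26.1 ± 4.70 CPM in starvation and 29.0 ± 2.64 CPM on food and a log2 fold change of -0.15 (interval -0.43 to 0.13), which was -0.04 without starvation replicate 3 and -0.23 without starvation replicate 1. FMRFaR, the receptor of FMRFamide peptides, had 0.07, and 0.15 without starvation replicate 3, 0.02 without starvation replicate 4 and 0.04 without food replicate 1. The allatostatin C receptors, relatives of somatostatin and opioid receptors, had 0.21 (AstC-R1, -0.05 to 0.47) and a value that changed sign with the scaling (AstC-R2, -0.23 to 0.23 around 0). None of these 4 genes passed in edgeR at an adjusted or unadjusted p under 0.05, or in DESeq2, edgeR's exact test or limma-voom.

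In the group of Pdfr, SPR, CrzR, CNMaR and TrissinR, 0 of 5 receptors passed in edgeR's quasi-likelihood test, DESeq2, edgeR's exact test or limma-voom, and 2 had an unadjusted p under 0.05. With upper-quartile scaling CNMaR (0.38, adjusted p = 0.0301, edgeR) and TrissinR (0.25, adjusted p = 0.0384, edgeR) passed. Pdfr, through which the clock peptide PDF sets daily rhythms, had 46.2, 49.0, 38.6 and 48.2 CPM in starvation and 53.8, 50.8, 50.7 and 51.4 CPM on food. All starvation libraries were below all food libraries, by little except in replicate 3. The log2 fold change was -0.18 (adjusted p = 0.13, edgeR). It was -0.11 without starvation replicate 3, and with a trend in exonic length removed it was -0.16 and passed (adjusted p = 0.0235, edgeR).

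CNMaR, the receptor of the peptide CNMamide, had 17.8, 17.7, 17.3 and 20.5 CPM in starvation and 15.4, 15.9, 12.3 and 17.6 CPM on food. Its difference of 0.26 did not pass (interval 0.01 to 0.51, adjusted p = 0.117, edgeR). SPR, which binds the male sex peptide in females and myoinhibitory peptides in both sexes, had -0.10 (-0.29 to 0.09). CrzR, the receptor of the stress peptide corazonin and a relative of AkhR, had -0.17 (-0.35 to 0.00). TrissinR, the receptor of trissin, had 0.14 with all libraries and 0.20 without starvation replicate 3, where it passed.

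Among the 6 receptors of ecdysis hormones and the leucine-rich repeat receptors, 0 passed in edgeR's quasi-likelihood test, DESeq2, edgeR's exact test, limma-voom or at an unadjusted p under 0.05, and the median was -0.01. ETHR and CCAP-R, which act in the ecdysis sequence at each moult, had estimates of 0.00 in size and -0.13, with 6.08 ± 1.03 and 3.70 ± 0.784 CPM in starvation against 6.09 ± 0.468 and 4.05 ± 0.735 CPM on food. The receptor rk, which receives bursicon and hardens the new cuticle, had 0.21 (-0.13 to 0.56) and passed without starvation replicate 3, at 0.36. Lgr1, the receptor of a glycoprotein hormone, had -0.15, and -0.08 without starvation replicate 3, Lgr3, the receptor of the relaxin-like Ilp8, had 0.10, and Lgr4 had -0.01.

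Per kb of exonic length, receptor levels were low beside other genes of the head. The receptors covered 0.779 to 17.3 CPM per kb in starvation (median 3.74) and 0.660 to 18.6 CPM per kb on food (median 3.27), against medians of 8.31 and 8.75 for all tested genes, and 6 receptors exceeded that median in each condition. On food the order began with SPR at 18.6, Dh44-R2 at 15.9, Proc-R at 11.4, Pdfr at 11.1 and AkhR at 10.2 CPM per kb. RYa-R, CapaR, PK2-R2 and AstA-R2 were at the low end, all under 1.

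The order was much the same in the conditions, with Spearman's rho of 0.97 over the 38 genes, given as a description because the levels come from the same libraries and lengths. SPR and Dh44-R2 took the first places in both, with 17.3 ± 1.97 and 17.2 ± 0.827 CPM per kb in starvation, a gap within their spread. AkhR was at place 16 in starvation and at place 5 on food. Proc-R was at place 7 in starvation and 3 on food, and Dh31-R at place 4 in starvation and 8 on food.

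**Figure D3:**
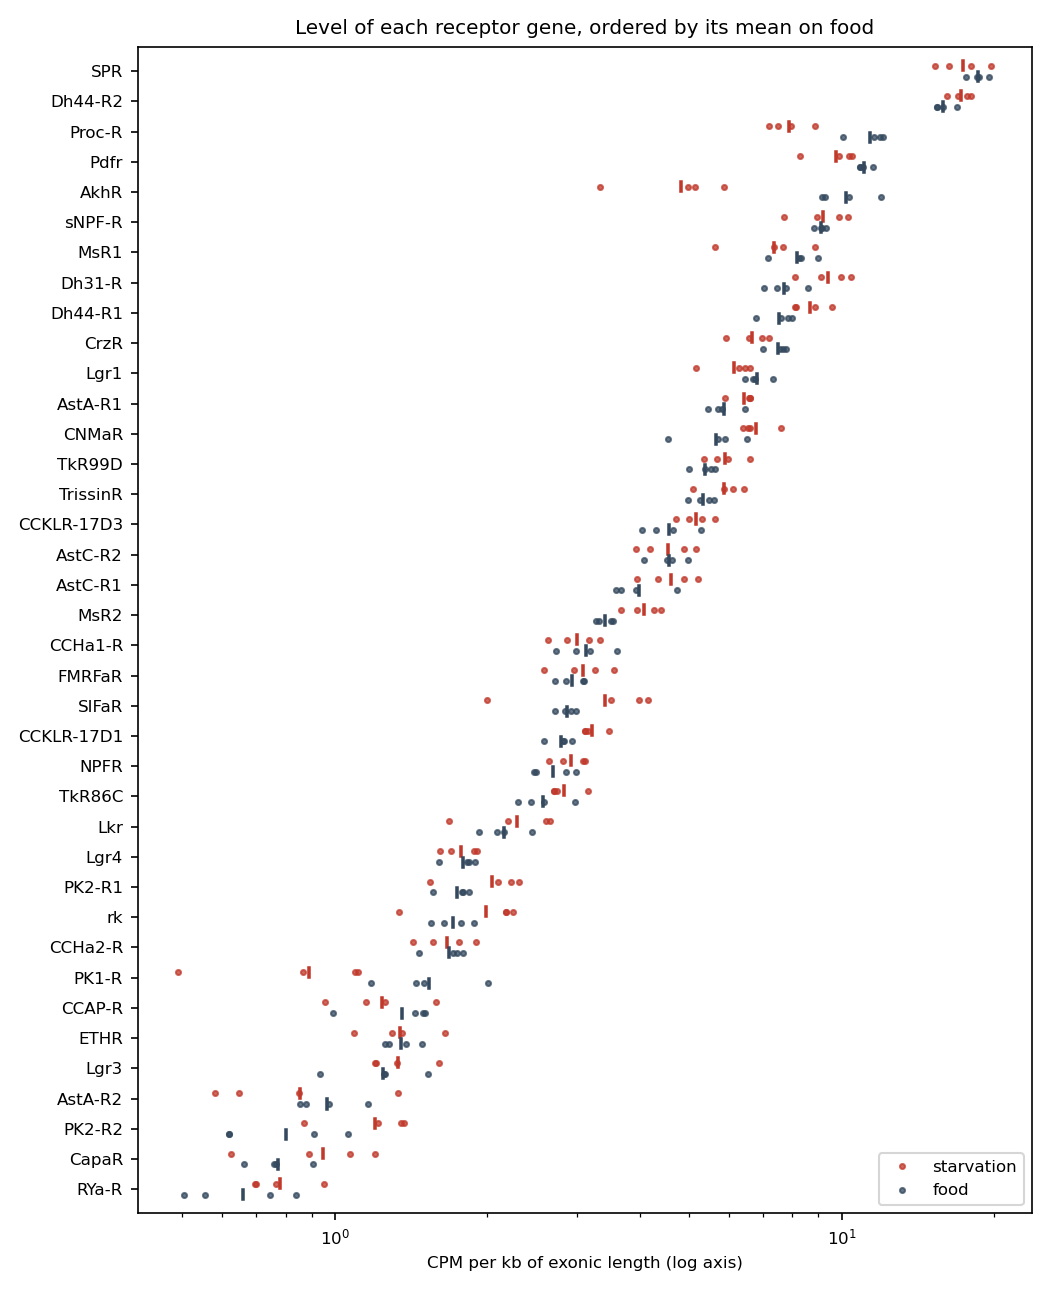
Level of each receptor gene in CPM per kb of exonic length on a log axis, with genes ordered by their mean on food. Points are libraries, the upper row of a gene is starvation and the lower row food, and vertical ticks are means. SPR and Dh44-R2 are highest, RYa-R is lowest, and AkhR shows the widest step between its rows.

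Raw counts behind these values ran from 56 to 3676 per gene and library, so no receptor was at or near 0 in any library. The receptor genes had exonic lengths of 1827 to 5386 bases (median 3187, against 1899 for all tested genes) and spanned 3208 to 92189 bases. Of the 38 genes 3 lie on 2L, 5 on 2R, 10 on 3L, 13 on 3R and 7 on X, and the deposited table marked no other gene as overlapping any of them. RefSeq listed 1 to 5 mRNAs per gene, with 10 genes having 1. Counts were made per gene, which leaves its transcripts unseparated.

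The spread between starvation samples depended on a single library. The median coefficient of variation over the 38 receptors was 11.8% in starvation and 8.37% on food, and it was larger in starvation for 28 receptors. Without starvation replicate 3, a comparison added after seeing the data, the median in starvation was 8.57% and 20 receptors had the larger value in starvation, whereas leaving out any other starvation library gave 10.6% to 12.8%. Without food replicate 1 the median on food was 6.04%. Starvation replicate 3 was the lowest of the starvation libraries for 28 receptors, 73.7% of them, against 35.5% of all tested genes. Summed over all 38 receptors, levels were 674, 636, 564 and 664 CPM in starvation replicates 1 to 4, against 642, 644, 640 and 668 CPM in food replicates 1 to 4. The neuronal marker sum was 4687 CPM in starvation replicate 3 and at least 7068 CPM in the other starvation libraries, and its part in the receptor values was not tested. Among receptors with estimates close to 0, leaving out this library moved sNPF-R to 0.09, ETHR to 0.09, NPFR to 0.16, CCAP-R to -0.03 and AstA-R2 to -0.06, and none of these passed.

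Of 35 genes that encode the peptides, 31 were tested, 12 rose (38.7%, against 10.04% of all tested genes) and 1 fell (3.23%, against 16.7%), and the median log2 fold change was 0.26. Endocrine cell markers summed to 552 to 563 CPM in starvation and 475 to 502 CPM on food, with 1 of 5 called, Lst, the gene of the hormone limostatin, which rose. The ligands with the smallest adjusted p were CCHa2 (-3.23), Proc (0.50), Mip (0.37), AstA (0.33), CNMa (0.86), Gpb5 (0.38), Trissin (0.54), FMRFa (0.40), Hug (0.31) and Dh31 (0.26). The Trissin and FMRFa calls were lost without food replicate 1 or 4, and the Hug call without food replicate 2 or 3 or starvation replicate 1. The count of 12 held in DESeq2, edgeR's exact test and limma-voom. It was 13 without starvation replicate 3, 6 without food replicate 1, 7 without food replicate 2 or 4, and 8 without starvation replicate 4. Calls over all genes moved as well. With all libraries 1210 of 12048 tested genes rose, and without starvation replicate 3 1947 of 12208 rose. Without food replicates 1, 2 and 4, 776 of 12185, 760 of 12198 and 829 of 12180 rose. Without starvation replicate 4, 1033 of 12203 rose. SP, Burs, Pburs and Ilp8 were not tested because of low counts.

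For the called receptors, receptor and ligand values stood as follows. Dh31-R and Dh31 both rose, at 0.29 and 0.26, and so did MsR2 and Ms, at 0.25 and 0.32 (adjusted p of Ms = 0.0273, edgeR). The Dh31 call was lost without any single food library or starvation replicate 4, and the Ms call without food replicate 1, 2 or 4 or starvation replicate 4. Proc-R fell while Proc rose. AkhR and PK1-R fell, and their ligand genes Akh (0.19) and Capa (0.18) did not pass. Akh averaged only 0.251 CPM in starvation and 0.218 CPM on food, so its estimate says little about a change. CCHa2-R gave the converse case, a ligand gene with a large fall beside a receptor gene at -0.01. The 7 fat body markers summed to 1976 to 2704 CPM in starvation and 7531 to 12008 CPM on food, with 4 lower and 1 higher. Their part in the fall of CCHa2 was not tested.

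**Figure D4:**
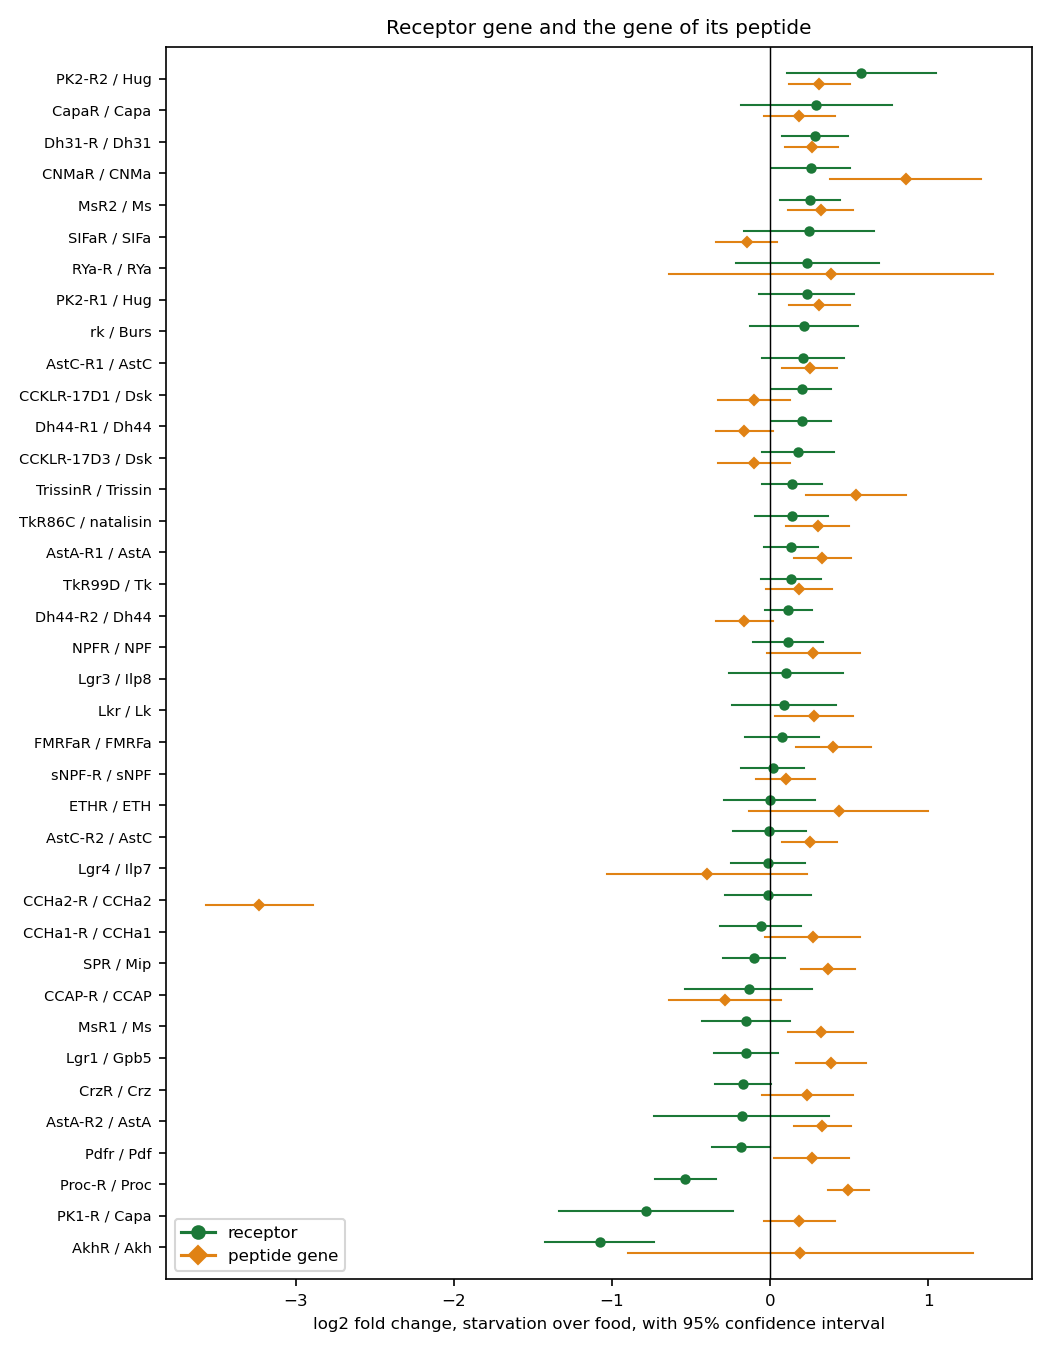
Log2 fold change, starvation over food, of each receptor gene (green circle) and of the gene of its peptide (orange diamond), with 95% confidence intervals, ordered by the receptor. No diamond is drawn where the peptide gene was not tested. The diamond of CCHa2 lies at -3.23 beside its receptor at -0.01, and Proc-R and Proc lie on opposite sides of 0.

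For 8 pairs of receptors that bind the same or closely related peptides, the log2 ratio of their counts was compared within each library, where library scaling cancels. MsR1 over MsR2 was 1.29, 1.24, 0.89 and 1.06 in starvation and 1.73, 1.60, 1.31 and 1.5 on food. The ratio was lower in every starvation library than in any food library, by 0.42 on average (difference -0.42, exact permutation p = 0.0286, 0.229 after adjustment over the 8 pairs). With that adjustment none of the 8 pairs passed. Before it, 4 against 4 samples cannot go below 0.0286, and a single pair at that floor could not pass after it. The adjusted test therefore cannot decide whether 1 pair alone differed.

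AstC-R1 over AstC-R2 was -0.34 ± 0.08 in starvation and -0.56 ± 0.09 on food (SD, n = 4 each, exact permutation p = 0.0571, adjusted 0.229). AstA-R1 over AstA-R2 was 3.63 ± 0.50 and 3.25 ± 0.21 (exact permutation p = 0.2), and PK2-R1 over PK2-R2 was 0.68 ± 0.49 and 1.06 ± 0.48 (exact permutation p = 0.314). The pairs for CCHamide, drosulfakinin, tachykinin and diuretic hormone 44 differed by at most 0.08 between conditions. Several of these pairs are neighbours on a chromosome, with 4163 bases between PK2-R2 and PK2-R1, 21748 between MsR2 and MsR1, 37910 between CCKLR-17D1 and CCKLR-17D3 and 57700 between AstC-R2 and AstC-R1.

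**Figure D5:**
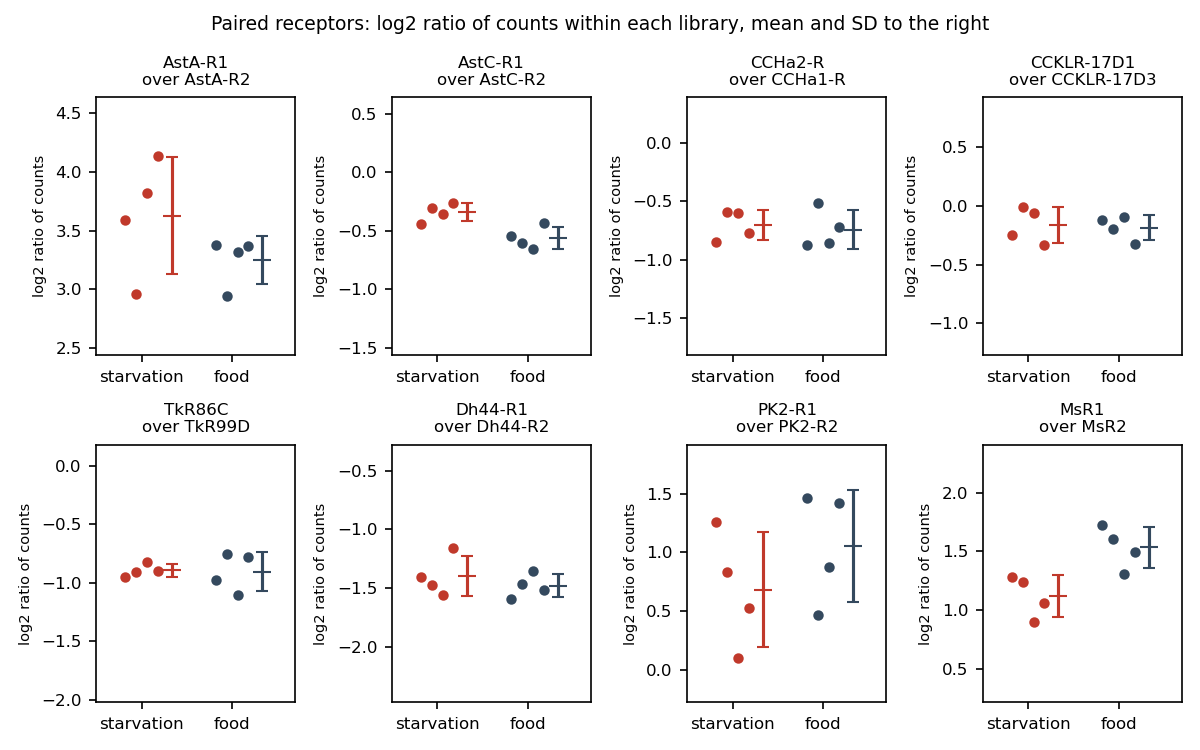
Log2 ratio of counts within each library for 8 pairs of receptors, one panel per pair, with points for the libraries and mean ± SD to the right, starvation left of food. The panels share the length of the axis but not its position. MsR1 over MsR2 is the only pair without overlap between the conditions.

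Downstream of the receptors, 32 genes for G protein subunits, adenylyl cyclases, phospholipases and other transducers had a median log2 fold change of 0.01. Of these 4 fell, which is 12.5% of them against 16.7% of all tested genes: Galphai, the inhibitory alpha subunit (-0.33), loco, a regulator of G protein signalling (-0.37), and the adenylyl cyclases Ac13E (-0.50) and Ac76E (-0.31). Ac13E kept its call under each of 17 alternatives. The Ac76E call was lost with upper-quartile scaling (-0.19) and without any single food library or starvation replicate 2, the Galphai call with upper-quartile scaling (-0.21) and without starvation replicate 1 or 4, and the loco call with the length trend removed (-0.27). The number that rose was 0 in edgeR's quasi-likelihood test, 1 at an unadjusted p under 0.05, 1 in DESeq2, 0 in edgeR's exact test and 0 in limma-voom. Without starvation replicate 3 it was 4 of 32, beside 1947 of all 12208 genes tested in that setting. All 6 glial markers fell as well, with sums of 997 to 1156 CPM in starvation and 1565 to 1737 CPM on food, and their part in these changes was not tested. Of 8 receptors with no assigned peptide, CG13229 rose by 0.28 and CG12290 fell by 0.36, a gene whose locus the table marks as overlapping a non-coding RNA. The CG13229 call was lost without food replicate 1, 2 or 3 or starvation replicate 1 or 2.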

How the data were processed

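Gene expression was measured by poly(A)+ RNA sequencing in heads of male flies under starvation or on food, 4 samples each. Mapping of the paired ends with STAR 2.6.1b, merging of flow cells and counting per gene were done by the authors, and the deposited values are raw counts, not normalized. Submitters' processing notes also name FastQC 0.11.5. The strand setting of the counting was not given in the sources used here. The deposited table also gave coordinates and exonic length. Of its rows, 17518 had a gene name, and 1 without a name, holding 0.00418% to 0.00541% of the counts of a library, was left out.

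From the deposited counts, edgeR 4.0.16 (R 4.3.3, limma 3.58.1) with TMM factors, filterByExpr and its quasi-likelihood test gave log2 fold changes, standard errors, intervals and Benjamini-Hochberg adjusted p-values for 12048 genes. Replicates had a common biological coefficient of variation of 0.138. CPM are TMM-normalized. For single receptors log2 CPM were also compared by an exact permutation test (two-sided), and ratios of receptor pairs used a pseudocount of 1. Scripts were tested on simulated data. The receptors and the lists of ligands, transducers and markers were chosen with earlier results of these data known. All 38 receptors were named, those with an adjusted p under 0.05 with every library, and of the other lists the genes past 0.05 (at most the 10 smallest adjusted p), the ligands of receptors given in full, and markers. SIFaR, CCKLR-17D1, Lkr, Dh44-R1, PK2-R2, Pdfr and CNMaR were given by library after their values were seen.

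Alternatives were DESeq2 1.42.0, RLE and upper-quartile factors, limma-voom, the exact test of edgeR, no filter, a filter at a mean of 10 counts, a replicate block, removal of a trend in exonic length, and leaving out each library. All 38 symbols matched a RefSeq gene of release 6. Splicing and protein levels were not analysed here.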

Additional observations from a re-analysis of the deposited data

Results flagged for a closer look

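In 6 of 76 sets of 4 libraries (38 receptors in each condition), a library stood far from the other 3 by Dixon's test at the 95% level. Chance alone gives about 1 in 20 sets, 3.8 here. In starvation replicate 3, AstA-R1 was low at 21.8 CPM (others 24.4 to 24.5) and rk was low at 7.22 CPM (others 11.7 to 12.1). In starvation replicate 4, TkR86C was high at 10.2 CPM (others 8.72 to 8.86) and CNMaR was high at 20.5 CPM (others 17.3 to 17.8). CCKLR-17D1 was high at 11.1 CPM in starvation replicate 2 (others 9.94 to 10.1). CCAP-R was low at 2.96 CPM in food replicate 1 (others 4.30 to 4.51). No receptor among the 5 that passed the test is in this list.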

How the results depend on the processing

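AkhR and Proc-R kept their direction and their call under each of the 17 alternatives. With upper-quartile scaling the median log2 fold change of all tested genes was 0.10, against -0.01 with TMM, so that values shifted upward: 12 receptors passed, 10 higher and 2 lower, 0 reached 2-fold, 2292 of all tested genes were higher and 1543 lower, and 5 transducers were higher and 2 lower. With TMM factors 3222 genes passed, 1210 higher and 2012 lower. With a trend in exonic length removed, 1937 genes, 4 transducers and 2 receptors without a peptide were higher. The number of receptors that rose was 1 with no filter on low counts and 0 in limma-voom, 1 transducer rose in DESeq2, and at an adjusted p alone 5 receptors passed in place of 1 at 2-fold. The cause of these differences was not tested.

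Receptors near 0 changed sign. CCHa2-R was 0.0070 in DESeq2, 0.0072 with RLE, 0.10 with upper-quartile factors and 0.0048 with no filter. AstC-R2 was 0.0149, 0.0153, 0.11 and 0.0108 in the same order, ETHR 0.0166, 0.0167, 0.11 and 0.0123, and Lgr4 0.0080, 0.0084, 0.10 and 0.0053. With the length trend removed AstC-R2 was 0.0036 and ETHR 0.0147. With upper-quartile factors CCHa1-R was 0.056 and SPR 0.0151.

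When each library was left out, counts of higher genes ranged from 760 to 1947 over all genes, 0 to 7 for receptors, 6 to 13 for ligands, 0 to 4 for transducers and 0 to 2 for receptors without a peptide, and the 2-fold count of receptors from 0 to 1. Estimates ranged from -0.054 to 0.059 for AstC-R2, -0.12 to 0.0165 for CCHa1-R, -0.083 to 0.076 for CCHa2-R, -0.089 to 0.087 for ETHR, -0.0117 to 0.22 for Lgr3, -0.060 to 0.034 for Lgr4 and -0.021 to 0.095 for sNPF-R.

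The labels link samples of the same replicate number by that number alone, and whether they were paired could not be determined. Deviations of same-numbered samples correlated at 0.02, 0.06, 0.12 and 0.17, against -0.13 to 0.08 for samples of unlike number. Starvation replicates 2, 3 and 4 each correlated best with the food library of their own number. Starvation replicate 1 correlated best with food replicate 4 (0.08). With a replicate block 6 receptors passed, 4 of them among the 5 above, with MsR2 lost (adjusted p = 0.0790, edgeR) and CNMaR and PK2-R2 gained, 3212 genes passed in all, and 0 receptors without a peptide rose.

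The 5 receptors with the widest intervals, AstA-R2, PK1-R, CapaR, PK2-R2 and RYa-R, were all under 4 CPM on average, and the part of depth was not tested.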
